A study of Homo sapiens with 6 samples.

Results

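The collagen chain genes are the 44 rows, of 27192 gene symbols listed, whose symbol has the form COL, a number, A and a number. They were followed in RNA of U87, an established human glioblastoma cell line, in 3 libraries transfected with siRNA against LINC00152, a long noncoding RNA (siLINC00152), and 3 libraries transfected with siGL2. The siLINC00152 cells received 2 siRNAs together and the siGL2 cells a nonspecific control siRNA. Both were transfected 2 times, 24 hours apart, and harvested 24 hours after the last transfection. PolyA RNA was sequenced as paired reads of 75 bases. All 6 libraries come from this 1 cell line, and the 2 siRNAs were used only in combination.

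Collagens are trimers of chains wound into a triple helix, and the chain genes fall into classes by what the trimers build. Fibrillar collagens form cables that carry tension, network collagens form the sheets of basement membranes, beaded filaments lie between cells and fibrils, and the fibril-associated collagens with interrupted helices (FACIT) sit on fibril surfaces. Healthy brain tissue holds little fibrillar collagen outside its vessels and meninges.

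The total count per library was 41963120 to 43713662 in the siLINC00152 libraries and 42139419 to 46234763 in the siGL2 libraries. Levels are in CPM, counts scaled to a common library size with TMM factors, and carry the SD over 3 libraries. A count of 0 allows up to 3 counts, which is 0.0634 to 0.0730 CPM depending on the library, as far as counting error goes. LINC00152 had 114, 112 and 109 counts in the siLINC00152 libraries, against 650, 608 and 776 in the siGL2 libraries. Its log2 fold change was -2.51 ± 0.09 (SE, edgeR adjusted p = 4.55e-15), and 20.7% of its 75-base stretches are also held by other genes. Nothing in the labels says whether the libraries of a group came from separate cultures. The p-values therefore set a group difference only against the scatter of these samples, and that scatter may be technical. Library siGL2 A stood apart from siGL2 B and C, with a chi-square of counts per degree of freedom of 10.9 and 13.7, against 2.91 between B and C. Library siLINC00152 A stood apart less, at 5.79 and 5.23 from siLINC00152 B and C, against 3.07 between those. Of 9 astrocyte and glioma markers 3 were tested. VIM, an intermediate filament gene, was the most abundant, at 6864 CPM in the siLINC00152 libraries and 8974 CPM in the siGL2 libraries, while S100B, SOX2, AQP4 and ALDH1L1 never passed 3 counts.

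By class, 6 of 7 tested fibrillar chains were higher in the siLINC00152 libraries, as were 3 of 4 basement membrane and 2 of 3 beaded filament chains. Anchoring fibrils and short-chain networks had only 1 tested chain each, and it was higher. None of the 4 tested FACIT and 2 tested transmembrane chains was higher. Of the 44 chains 24 had enough counts to be tested. Of these 24, 13 were higher, 5 were lower and 6 did not pass an adjusted p of 0.05 (edgeR's quasi-likelihood test, Benjamini-Hochberg over 14078 genes). Among all tested genes 32.2% were higher and 32.2% were lower, so a call by itself is common in this comparison. Calls of at least 1.5-fold were made for 9 chains higher, against 9.53% of tested genes, and for 3 lower, against 10.4%. Calls of at least 2-fold were made for 5 chains higher and 1 lower, against 3.08% and 3.53% of tested genes. COL3A1, COL5A3 and COL4A4 passed the filter on low counts only through the siLINC00152 libraries and COL28A1 only through the siGL2 libraries, so a difference in them was built into their passing.

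The 19 chains with a mean of at least 1 CPM over all libraries are free of that choice. Of these 19, 10 were higher, 3 lower and 6 did not pass, against 34.7% higher and 34.3% lower among the 12265 tested genes at that level. The share called in either direction is therefore near the background of 69%. At 1.5-fold or more 7 of the 19 were called, against 18.3%, and at 2-fold or more 2 were called, against 5.06%. Their median log2 fold change was 0.40, beside 0.00 over the 12265 genes. In 14 of the 19 the CPM of the groups did not overlap, a share near the 71.9% of those genes.

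**Figure D1:**
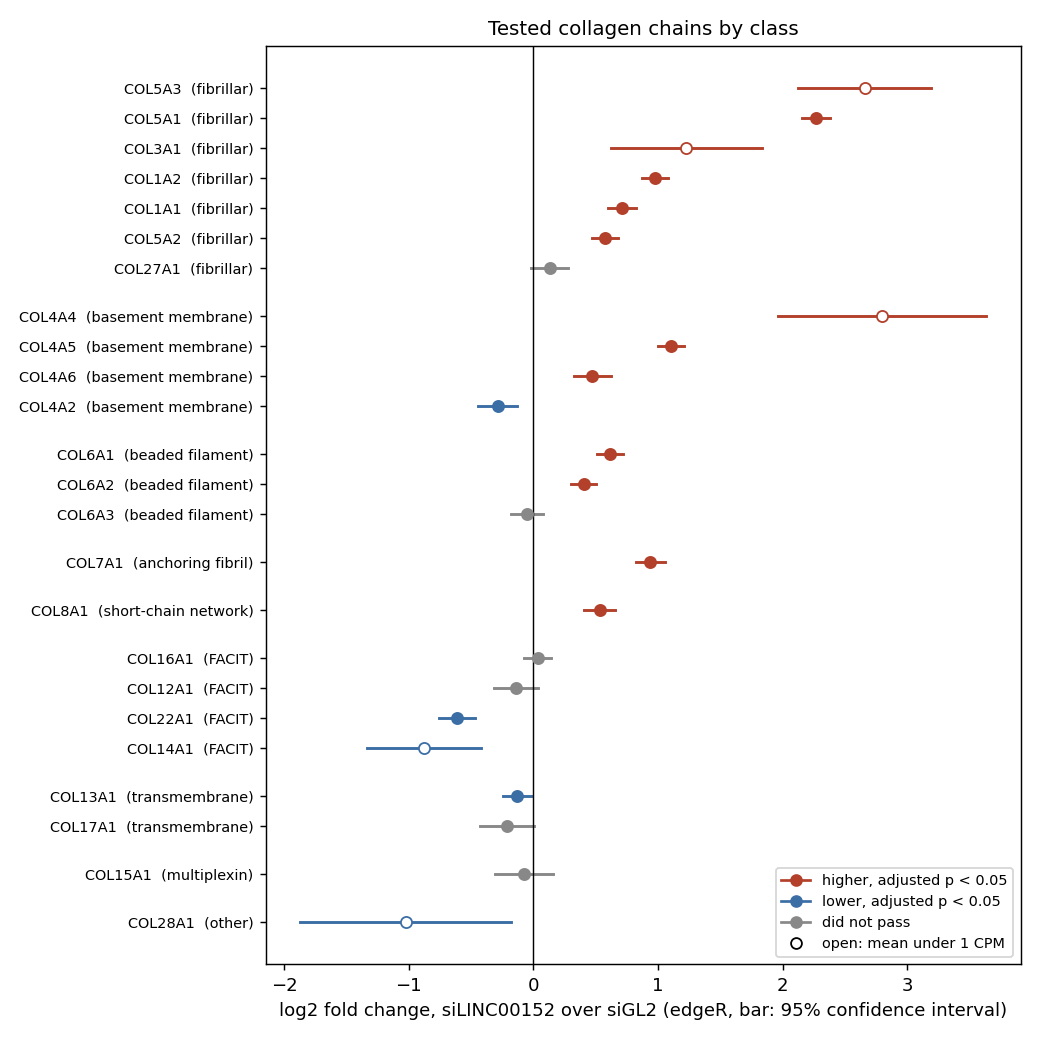
Log2 fold change of the 24 tested collagen chains, siLINC00152 over siGL2 (x axis), grouped by class down the page, with 95% confidence intervals from edgeR as bars. Open points mark chains with a mean under 1 CPM. The 13 higher chains all lie in the fibrillar, basement membrane, beaded filament, anchoring fibril and short-chain network classes, and the FACIT, transmembrane, multiplexin and other chains lie near or left of 0.

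The fibrillar class had the most tested chains: 6 of 7 were higher and COL27A1 did not pass. Of the 6, COL3A1 and COL5A3 passed the filter on low counts only through the siLINC00152 libraries. Of the 5 fibrillar chains with a mean of at least 1 CPM 4 were higher, against 34.7% of tested genes at that level. COL5A1 encodes a chain of type V collagen, a minor fibrillar collagen that starts type I fibrils and limits their width. It lies on chromosome 9 at 134641774-134844843, plus strand (GRCh38, as are all positions here). Its level was 1432, 1278 and 1307 CPM in the siLINC00152 libraries, against 297, 272 and 265 CPM in the siGL2 libraries. Every siLINC00152 library was thus far above every siGL2 library. The log2 fold change was 2.27 ± 0.05 (SE, edgeR adjusted p = 7.89e-18), a 4.81-fold higher level, and the gene ranked 60th by mean CPM in the siLINC00152 libraries and 583rd in the siGL2 libraries.

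COL5A2, a partner of COL5A1 in type V trimers, was higher as well. COL5A2 (chromosome 2, 189031896-189225312, minus strand) had 112, 106 and 113 CPM in the siLINC00152 libraries, against 78.4, 71.7 and 71.9 CPM in the siGL2 libraries. The log2 fold change of COL5A2 was 0.57 ± 0.05 (SE, edgeR adjusted p = 2.72e-09). COL5A3, the third type V chain, stood at only 50, 46 and 48 counts in the siLINC00152 libraries and 8, 8 and 8 counts in the siGL2 libraries, with a log2 fold change of 2.66 ± 0.26 (SE, edgeR adjusted p = 1.50e-08). The ratio of COL5A1 to COL5A2, each per kb of transcript, was 10.2 ± 0.476 in the siLINC00152 libraries and 3.14 ± 0.0552 in the siGL2 libraries (SD, n = 3 each), without overlap. For this and the ratios below, no background from other gene pairs was taken.

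Type I collagen, the main collagen of bone, skin and tendon, is built from chains of COL1A1 and COL1A2. COL1A2 (chromosome 7, 94394561-94431232, plus strand) had 752, 672 and 687 CPM in the siLINC00152 libraries, against 373, 359 and 341 CPM in the siGL2 libraries. COL1A1 (chromosome 17, 50183289-50201632, minus strand) had 768, 673 and 692 CPM in the siLINC00152 libraries, against 454, 445 and 405 CPM in the siGL2 libraries. Neither gene's groups overlapped. The log2 fold changes were 0.98 ± 0.05 for COL1A2 (SE, edgeR adjusted p = 7.64e-13) and 0.71 ± 0.05 for COL1A1 (SE, edgeR adjusted p = 4.36e-10). Most type I trimers take more COL1A1 than COL1A2 chains, yet the per-kb ratio of COL1A1 to COL1A2 RNA was 0.812 ± 0.00796 in the siLINC00152 libraries and 0.977 ± 0.0212 in the siGL2 libraries.

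COL3A1 encodes type III collagen, found with type I in distensible tissue, and was near the lower limit of these libraries, with 21, 27 and 25 counts in the siLINC00152 libraries and 9, 9 and 15 counts in the siGL2 libraries. For COL3A1 the log2 fold change was 1.23 ± 0.29 (SE, edgeR adjusted p = 9.67e-04). It is the neighbour of COL5A2, with the 3′ ends of the genes facing each other across 19149 bases, yet its level was far lower: 0.105 CPM per kb of transcript in the siLINC00152 libraries and 0.0441 in the siGL2 libraries, where COL5A2 had 15.6 and 10.4 CPM per kb. COL27A1, a fibrillar chain of cartilage, had 32.3, 25.3 and 27.7 CPM in the siLINC00152 libraries and 26.6, 25.4 and 25.8 CPM in the siGL2 libraries, and the groups overlapped. Its log2 fold change of 0.13 ± 0.07 (SE) did not pass (edgeR adjusted p = 0.110), and it passed without library siLINC00152 B, at 0.21. The cartilage chains COL2A1, COL11A1 and COL11A2 and the fibrillar chain COL24A1 were not tested and never passed 17 counts.

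**Figure D2:**
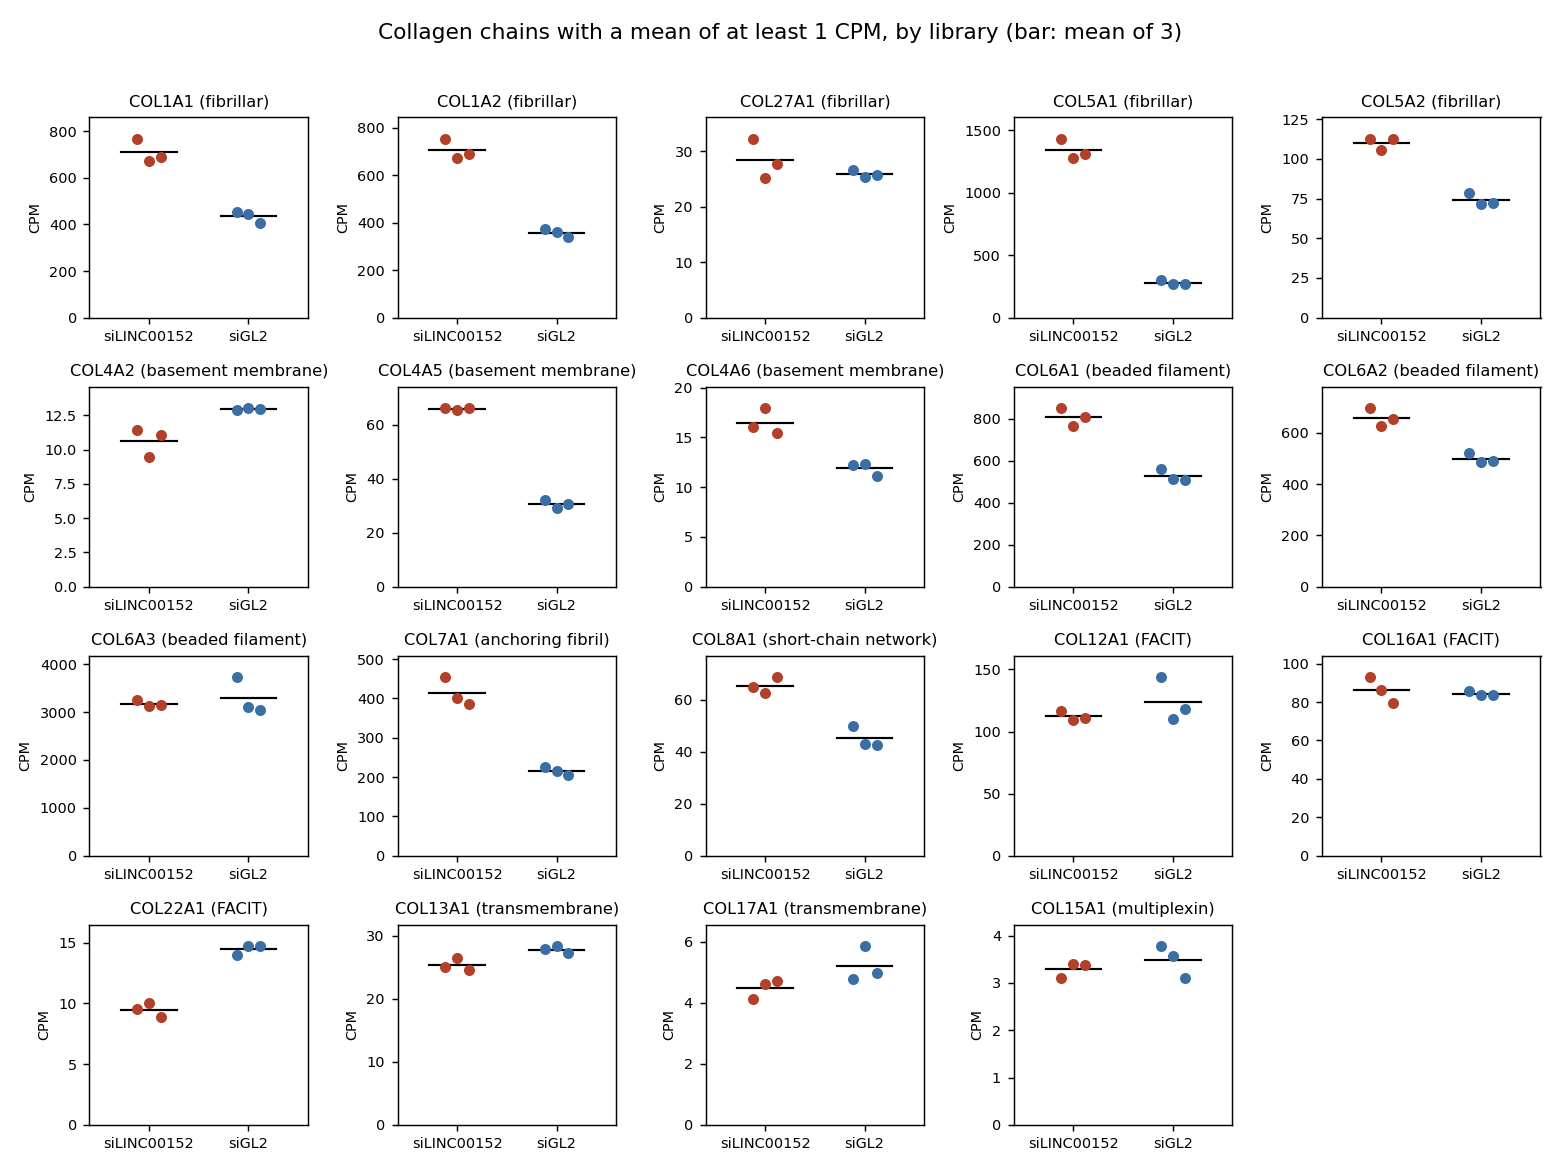
CPM of each collagen chain with a mean of at least 1 CPM (y axis, from 0), by group (x axis), with 1 point for each library and a bar at the mean of 3. COL5A1 shows the widest gap, at 1278 to 1432 CPM in the siLINC00152 libraries and 265 to 297 CPM in the siGL2 libraries, and in COL6A3 and COL12A1 library siGL2 A is the highest of the 6.

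The basement membrane chains of type IV collagen are given by gene pair. Only COL4A5 and COL4A6 were a pair with both chains tested. Type IV genes lie in 3 head-to-head pairs, each pair on opposite strands with its starts close together. The pair COL4A5 and COL4A6 on the X chromosome was higher on both sides. COL4A5, whose protein is mutated in Alport syndrome, a hereditary disease of kidney and ear, had 66.2, 65.4 and 66.1 CPM in the siLINC00152 libraries, against 32.3, 29.3 and 30.5 CPM in the siGL2 libraries. COL4A6, found with COL4A5 in the basement membrane of smooth muscle, had 16.1, 18.0 and 15.4 CPM in the siLINC00152 libraries, against 12.2, 12.3 and 11.1 CPM in the siGL2 libraries. Both genes' groups were apart. The log2 fold changes were 1.10 ± 0.05 for COL4A5 (SE, edgeR adjusted p = 1.42e-13) and 0.47 ± 0.07 for COL4A6 (SE, edgeR adjusted p = 7.92e-06), and their per-kb ratio was 4.18 ± 0.348 in the siLINC00152 libraries and 2.70 ± 0.191 in the siGL2 libraries.

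The pair COL4A4 and COL4A3 on chromosome 2, which join COL4A5 in the kidney filter, was scarce. COL4A4 had 29, 21 and 37 counts in the siLINC00152 libraries and 8, 3 and 2 counts in the siGL2 libraries, with a log2 fold change of 2.80 ± 0.40 (SE, edgeR adjusted p = 3.80e-06). COL4A3 had 6, 12 and 10 counts in the siLINC00152 libraries and 1, 0 and 3 counts in the siGL2 libraries and was not tested with the filter on low counts. Without that filter its adjusted p was 1.66e-04 with edgeR, and with DESeq2 it was 0.00890.

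The pair COL4A1 and COL4A2 on chromosome 13 encodes the type IV chains that most basement membranes share. COL4A2 had 11.4, 9.42 and 11.1 CPM in the siLINC00152 libraries, against 12.9, 13.0 and 12.9 CPM in the siGL2 libraries, so each siLINC00152 library was lower. COL4A2 had a log2 fold change of -0.28 ± 0.08 (SE, edgeR adjusted p = 0.00248). COL4A1 was listed at 2, 3 and 2 counts in the siLINC00152 libraries and 0, 3 and 2 counts in the siGL2 libraries, at or under the limit of 3 counts in every library. The annotation and strand setting of the counting are unknown here, so whether this low count reflects the RNA or the counting was not tested, and the same holds for COL18A1 below. RefSeq places the start of COL4A1 at 110307157 and that of COL4A2 at 110307284, with 126 bases between them. That stretch, chr13:110307158-110307283 on the plus strand (RefSeq, GRCh38.p14), is shown because both genes start at its ends, with matches to a CCAAT box and a GC box in capitals.

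COL4A1 to COL4A2: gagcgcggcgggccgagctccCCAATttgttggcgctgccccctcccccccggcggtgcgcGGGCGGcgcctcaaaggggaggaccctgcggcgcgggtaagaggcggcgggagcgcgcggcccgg

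Searched on both strands, with no overlap between motifs, the stretch held 1 CCAAT, 1 GGGCGG and 0 TATAAA. The longer promoter window of COL4A2, of 300 bases, includes the stretch and held the same numbers. Of 35116 RefSeq promoter windows of 300 bases, 34.6% hold CCAAT, 45.0% hold GGGCGG and 11.5% hold TATAAA. The promoter window of COL4A2 was 77.7% G and C, beside a median of 58.7% over all windows. The starts of COL4A4 and COL4A3 are 418 bases apart in RefSeq and those of COL4A6 and COL4A5 are 379 bases apart. GENCODE release 29 also lists transcripts of COL4A2 that begin inside COL4A1, so that the genes overlap there.

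Type VI collagen, which forms beaded microfilaments around cells, was the most abundant type. COL6A1 (chromosome 21, 45981737-46005050, plus strand) had 850.5, 764 and 807 CPM in the siLINC00152 libraries, against 562, 513 and 508 CPM in the siGL2 libraries. COL6A2, its neighbour on the same strand 93046 bases further on, had 696, 626 and 652 CPM in the siLINC00152 libraries, against 519, 486 and 489 CPM in the siGL2 libraries. The groups did not overlap in either gene. The log2 fold changes were 0.61 ± 0.05 for COL6A1 (SE, edgeR adjusted p = 1.12e-09) and 0.40 ± 0.05 for COL6A2 (SE, edgeR adjusted p = 2.41e-07).

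COL6A3 (chromosome 2, 237324003-237414375, minus strand), the long chain that completes the trimer, had 3256, 3122 and 3148 CPM in the siLINC00152 libraries and 3730, 3097 and 3043 CPM in the siGL2 libraries. Library siGL2 A was the highest and the groups overlapped. Its log2 fold change was -0.05 ± 0.06 (SE, edgeR adjusted p = 0.491), with a 95% confidence interval of -0.18 to 0.08. Without siGL2 A it was 0.05 and did not pass. With a correction for transcript length it was -0.23 and passed (edgeR adjusted p = 3.25e-05). Per kb of transcript COL6A3 remained the most abundant chain, at 295 CPM per kb in the siLINC00152 libraries and 306 CPM per kb in the siGL2 libraries. The per-kb ratio of COL6A3 to COL6A1 was 1.55 ± 0.0528 in the siLINC00152 libraries and 2.45 ± 0.141 in the siGL2 libraries, while that of COL6A1 to COL6A2 was 1.001 ± 0.00788 in the siLINC00152 libraries and 0.865 ± 0.0180 in the siGL2 libraries. In both ratios the groups were apart. The other beaded filament chains, COL6A5 and COL6A6, never passed 3 counts.

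**Figure D3:**
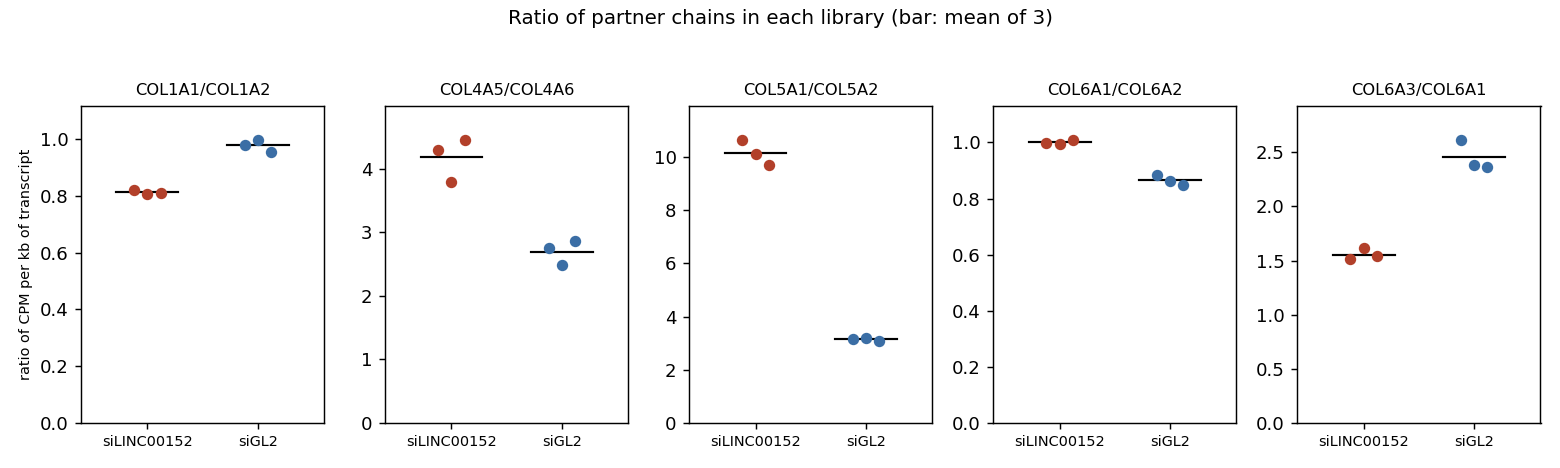
Ratio of 2 partner chains in each library, each chain as CPM per kb of its transcript (y axis, from 0), by group (x axis), with 1 point for each library and a bar at the mean of 3. No ratio overlaps between groups, and COL5A1/COL5A2 moves furthest, to 10.2 in the siLINC00152 libraries, against 3.14 in the siGL2 libraries. Of single tested genes averaging 1 CPM or more, 71.9% also keep the groups apart. Ratios of other gene pairs were not taken, so whether the lack of overlap is particular to partner chains was not tested.

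COL7A1 (chromosome 3, 48564073-48595267, minus strand) encodes type VII collagen, whose anchoring fibrils tie the epidermal basement membrane to the dermis. Its level was 454, 400.4 and 386 CPM in the siLINC00152 libraries, against 227, 216 and 205 CPM in the siGL2 libraries, with no overlap. The log2 fold change was 0.94 ± 0.06 (SE, edgeR adjusted p = 1.75e-11). COL8A1 (chromosome 3, 99638475-99799226, plus strand) encodes a short-chain collagen of the hexagonal networks of vessel walls and the cornea. It had 65.1, 62.5 and 68.8 CPM in the siLINC00152 libraries, against 50.04, 43.1 and 42.5 CPM in the siGL2 libraries. All siLINC00152 libraries were above all siGL2 libraries, and the log2 fold change was 0.53 ± 0.06 (SE, edgeR adjusted p = 1.25e-07). Its relatives COL8A2 and COL10A1 were not tested, with at most 17 counts.

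Among the FACIT chains 2 of 4 tested were lower and none was higher, against 32.2% of all tested genes in each direction. Of the 3 FACIT chains with a mean of at least 1 CPM 1 was lower, near the 34.3% of tested genes at that level. COL22A1, known from the junction of muscle and tendon, had 9.57, 10.04 and 8.85 CPM in the siLINC00152 libraries, against 14.01, 14.7 and 14.7 CPM in the siGL2 libraries, without overlap. COL22A1 had a log2 fold change of -0.61 ± 0.07 (SE, edgeR adjusted p = 1.94e-07). COL14A1, which binds type I fibrils, had 21, 24 and 27 counts in the siLINC00152 libraries and 53, 47 and 41 counts in the siGL2 libraries, with a log2 fold change of -0.88 ± 0.22 (SE, edgeR adjusted p = 0.00147).

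The remaining tested FACIT chains did not pass. COL12A1, also a binder of type I fibrils, had 117, 109.5 and 111 CPM in the siLINC00152 libraries and 144, 110.3 and 118 CPM in the siGL2 libraries, where siGL2 A was again the highest. Its log2 fold change was -0.14 ± 0.08 (SE, edgeR adjusted p = 0.147), and -0.02 without siGL2 A. It passed as lower in 5 alternatives, among them the correction for transcript length, at -0.32 (edgeR adjusted p = 5.53e-06), scaling by library size alone, at -0.21, and without siGL2 B, at -0.22. COL16A1, found near small fibrils and at cell adhesions, had 93.0, 86.5 and 79.7 CPM in the siLINC00152 libraries and 85.5, 83.8 and 83.8 CPM in the siGL2 libraries. The siLINC00152 libraries lay on both sides of the siGL2 ones, and the log2 fold change was 0.03 with a 95% confidence interval of -0.08 to 0.14 (edgeR adjusted p = 0.588). COL9A1 was at 0 counts in every library. COL9A3, a cartilage FACIT chain not tested here, had 11, 11 and 8 counts in the siLINC00152 libraries and 3, 2 and 3 counts in the siGL2 libraries, with an edgeR adjusted p of 0.00206 once the filter on low counts was dropped. COL9A2, also not tested, went the other way, and did not pass without that filter. It had 5, 5 and 4 counts in the siLINC00152 libraries and 11, 14 and 6 counts in the siGL2 libraries.

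The transmembrane collagens, which are anchored in the cell membrane, differed little. COL13A1, which helps form the neuromuscular junction, had 25.1, 26.5 and 24.6 CPM in the siLINC00152 libraries, against 27.8, 28.3 and 27.3 CPM in the siGL2 libraries. The groups were apart but close, with a log2 fold change of -0.13 ± 0.06 (SE, edgeR adjusted p = 0.0434). That call was lost with DESeq2 (adjusted p = 0.0926), without the filter on low counts (edgeR adjusted p = 0.0642) and without siGL2 B, siGL2 C, siLINC00152 A or siLINC00152 C, where the edgeR adjusted p was 0.126, 0.0546, 0.0868 and 0.168. COL17A1, a chain of the hemidesmosomes of skin, had 4.14, 4.62 and 4.72 CPM in the siLINC00152 libraries and 4.79, 5.85 and 4.97 CPM in the siGL2 libraries. These did not overlap, yet its log2 fold change of -0.21 ± 0.10 (SE) did not pass (edgeR adjusted p = 0.0782). It passed as lower without siGL2 A, at -0.26, with library size alone, at -0.28, and with the length correction, at -0.30.

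COL15A1, a multiplexin, a class whose members carry sugar chains and shed inhibitors of vessel growth, had 3.12, 3.40 and 3.38 CPM in the siLINC00152 libraries and 3.78, 3.56 and 3.11 CPM in the siGL2 libraries. The groups overlapped, and the log2 fold change was -0.07 with a 95% confidence interval of -0.31 to 0.16 (edgeR adjusted p = 0.581). The other multiplexin, COL18A1, source of endostatin, never passed 2 counts in any library, a value that may rest on the counting, and 16.4% of its exonic bases overlap a gene on the opposite strand. COL28A1, a collagen of peripheral nerve in mice, had 4, 7 and 5 counts in the siLINC00152 libraries and 10, 14 and 11 counts in the siGL2 libraries, with a log2 fold change of -1.02 ± 0.41 (SE, edgeR adjusted p = 0.0329). It lost that call with DESeq2 (adjusted p = 0.182), without the filter on low counts (edgeR adjusted p = 0.0639) and without siGL2 B, siLINC00152 A or siLINC00152 C, where the edgeR adjusted p was 0.133, 0.106 and 0.0900. In all, 20 chains were not tested. Their counts lay between 0 and 18, and 9 of them never passed 3 counts.

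Summed over a class, the makeup of collagen RNA differed more than its total. All 44 chains together took 8351 ± 369.5 CPM in the siLINC00152 libraries and 6065 ± 517 CPM in the siGL2 libraries (SD, n = 3 each), a ratio of 1.38. The fibrillar sum was 2894 ± 181 CPM in the siLINC00152 libraries and 1171 ± 60.6 CPM in the siGL2 libraries, a ratio of 2.47. COL5A1 made up 46.3% of that sum in the siLINC00152 libraries and 23.8% in the siGL2 libraries. Without it the log2 ratio of the sums was 0.80 in place of 1.31. The basement membrane sum was 94.0 ± 0.518 CPM in the siLINC00152 libraries and 55.7 ± 1.65 CPM in the siGL2 libraries, and without COL4A5 its log2 ratio was 0.17 in place of 0.75.

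The beaded filament sum was 4803, 4512 and 4607 CPM in the siLINC00152 libraries and 4811, 4095 and 4040 CPM in the siGL2 libraries. The groups overlapped through siGL2 A alone. Without that library the log2 ratio was 0.19 in place of 0.10, and without COL6A3 it was 0.51. The FACIT sum was 209.5 ± 9.86 CPM in the siLINC00152 libraries and 224 ± 18.2 CPM in the siGL2 libraries, and the transmembrane sum was 29.9 ± 1.06 CPM in the siLINC00152 libraries and 33.1 ± 0.961 CPM in the siGL2 libraries. Per kb of transcript, COL6A3 made up 24.7% of all collagen RNA in the siLINC00152 libraries and 36.8% in the siGL2 libraries, and COL5A1 made up 13.2% in the siLINC00152 libraries and 3.96% in the siGL2 libraries. Within groups, the library lettered A held the highest CPM of 12 of the 19 chains in the siLINC00152 libraries and of 14 in the siGL2 libraries, and of 11 in both. That count was made for these chains only, so whether it is particular to them was not tested.

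**Figure D4:**
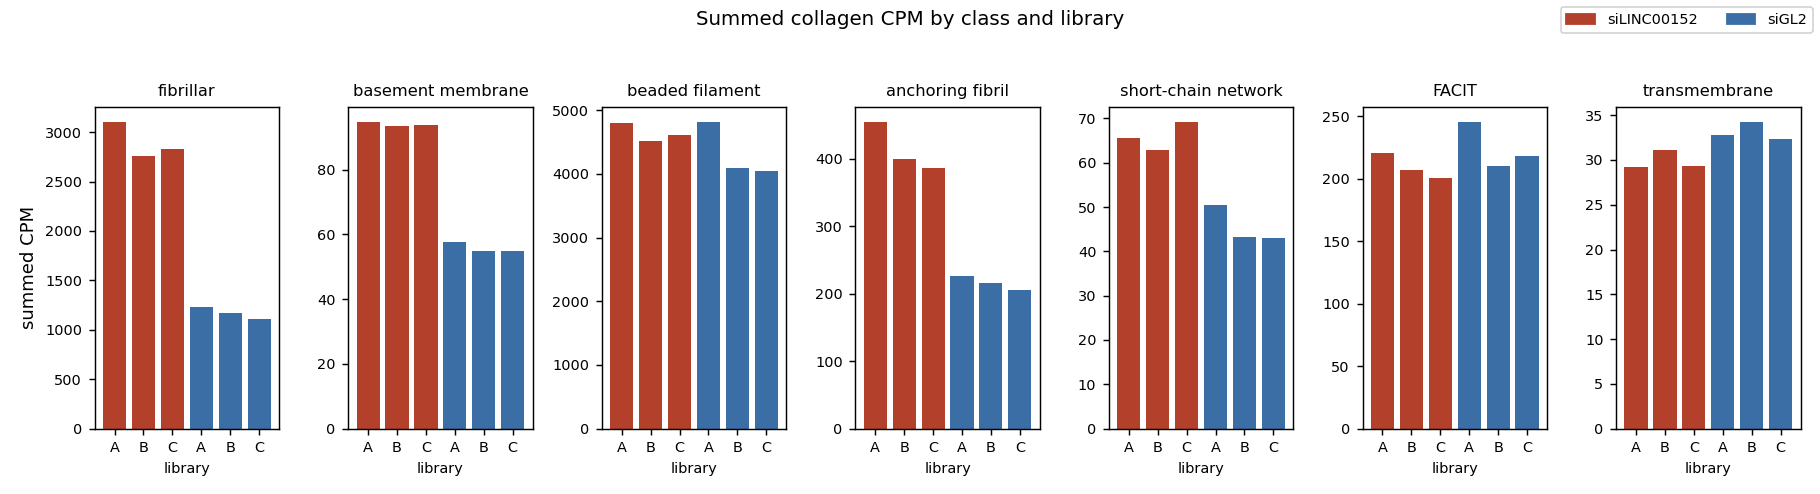
Summed CPM of the collagen chains of 7 classes (y axis, from 0, its own scale in each panel), with 1 bar for each library (x axis). The fibrillar sum is 2755 to 3099 CPM in the siLINC00152 libraries and 1109 to 1230 CPM in the siGL2 libraries, while the beaded filament and FACIT sums overlap between groups.

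In bulk RNA, fewer cells of a type and less RNA per cell cannot be told apart. All 6 libraries are of the U87 line, and a marker's level does not show that cells of that type were present. Of 7 fibroblast and pericyte markers 5 were tested, and their summed level was 99.4 to 107 CPM in the siLINC00152 libraries and 87.8 to 88.4 CPM in the siGL2 libraries. PDGFRB, the most abundant, averaged 44.6 CPM in the siLINC00152 libraries and 29.1 CPM in the siGL2 libraries. LUM, a proteoglycan of fibroblasts, had 66 to 69 counts in the siLINC00152 libraries and 257 to 302 counts in the siGL2 libraries, and DCN and THY1 never passed 8 counts. The 4 endothelial markers summed to 2.91 to 3.09 CPM in the siLINC00152 libraries and 7.06 to 8.26 CPM in the siGL2 libraries, led by KDR, while VWF among them was higher by 1.10 on the log2 scale (adjusted p = 0.00123 with edgeR). The 5 epithelial markers, led by KRT8, summed to 3.94 to 5.53 CPM in the siLINC00152 libraries and 5.35 to 5.88 CPM in the siGL2 libraries. The 4 neuron markers, led by TUBB3, summed to 264 to 275 CPM in the siLINC00152 libraries and 298 to 307 CPM in the siGL2 libraries. The 5 microglia and macrophage markers summed to 299.8 to 325 CPM in the siLINC00152 libraries and 354 to 358 CPM in the siGL2 libraries, led by CD68, a lysosomal gene, with AIF1 at 0 counts throughout. The part of these markers in the collagen results was not tested.

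Many collagen mRNAs are textbook targets of the miR-29 family, small RNAs that pair through their seed, bases 2 to 8, with the 3′ untranslated region (UTR) of an mRNA. Earlier results of these data had named the matching word among 3′ UTRs, so what follows describes the chains and is no independent support. The mature sequences (RefSeq, GRCh38.p14) are shown because they share 1 seed, in capitals.

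hsa-miR-29a-3p: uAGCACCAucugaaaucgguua
hsa-miR-29b-3p: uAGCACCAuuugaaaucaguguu
hsa-miR-29c-3p: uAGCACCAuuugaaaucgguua

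The matching word in the mRNA strand is TGGTGCT. In the GENCODE 29 transcript with the longest coding sequence, the 3′ UTR held it in 28 of 44 chains and in 18 of the 24 tested (75%), beside 14.1% of 12305 tested genes with a 3′ UTR. The median 3′ UTR of the tested chains was 995 bases long, beside 1023 bases in those genes. By call it was 1163 bases in the higher chains, 805 in the lower ones and 927.5 in those that did not pass. Of the 13 higher chains 12 held it, all but COL6A1. Of the 5 lower chains COL4A2 and COL22A1 held it, and of the 6 that did not pass COL15A1, COL16A1, COL27A1 and COL6A3 held it. With the transcript of the longest 3′ UTR in its place, COL6A2 had no match, and 17 of the 24 chains held the word, beside 16.8% of tested genes.

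The number of matches differed among the higher chains. COL5A1 held 4 matches, COL5A3 and COL4A4 held 3 each, COL3A1 and COL7A1 held 2 each, and every other higher chain with a match held 1. COL5A3, COL4A4 and COL3A1 passed the filter on low counts only through the siLINC00152 libraries. The untested chains COL11A1, COL19A1, COL21A1 and COL4A3 held 2 matches each and went both ways. Their means were 0.151, 0.0395, 0.246 and 0.222 CPM in the siLINC00152 libraries, against 0.204, 0.0148, 0.250 and 0.0288 CPM in the siGL2 libraries. Per kb of 3′ UTR, COL5A1, COL5A3, COL4A4, COL3A1 and COL7A1 held 1.57, 3.53, 0.650, 2.06 and 6.01 matches. Of chains that did not pass, COL15A1, COL16A1, COL27A1 and COL6A3 held 1.10, 2.48, 0.551 and 1.31 per kb. The lower chains COL4A2 and COL22A1 held 0.982 each. The 4 sites of COL5A1 are printed as the chain with most matches, the sites of COL1A1, COL1A2 and COL4A5 as those of higher chains with 1 match, and the sites of COL6A3 and COL4A2 as those of chains that were not higher. Each is 23 bases of the mRNA strand from GENCODE 29 on GRCh38, 5′ to 3′, with the match in capitals.

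COL5A1 site 1, chr9:134843327-134843349, plus strand: taactcaatgaaaatTGGTGCTt
COL5A1 site 2, chr9:134843367-134843389, plus strand: cttgtggctctcttgTGGTGCTa
COL5A1 site 3, chr9:134843701-134843723, plus strand: gttcctgaatgtttgTGGTGCTa
COL5A1 site 4, chr9:134844082-134844104, plus strand: gagcctgcggggctcTGGTGCTg
COL1A1, chr17:50184572-50184594, minus strand: tggggagggaatcacTGGTGCTa
COL1A2, chr7:94430898-94430920, plus strand: cttgaagaatgttgaTGGTGCTa
COL4A5, chrX:108696469-108696491, plus strand: tactgctgccgtcaaTGGTGCTa
COL6A3, chr2:237324601-237324623, minus strand: catgacctatcagtaTGGTGCTa
COL4A2, chr13:110512204-110512226, plus strand: caggaagggccatttTGGTGCTt

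The site of COL6A3, whose level did not pass the test, is followed by an a, as are those of COL1A1, COL1A2 and COL4A5, and that of COL4A2 is followed by a t. Over all tested genes the word was held by 20.2% of the 4105 higher genes with a 3′ UTR and by 10.1% of the 4149 lower ones, whose median 3′ UTR lengths were 1455 and 807 bases. The median log2 fold change was 0.15 over the 1739 genes that hold it and -0.02 over the 10566 that do not. A match is a string of letters and was not tested as a site. The length difference moves with the calls, and its part was not tested.

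**Figure D5:**
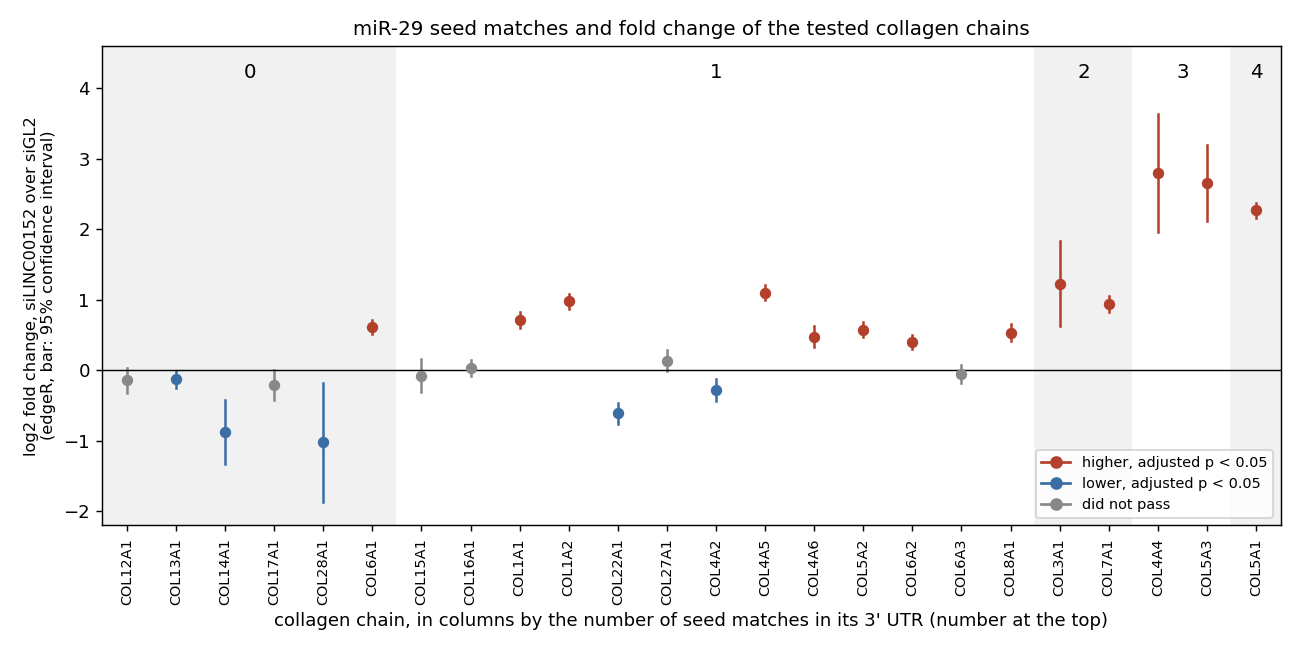
Log2 fold change of the 24 tested collagen chains, siLINC00152 over siGL2 (y axis), with 95% confidence intervals from edgeR as bars, set in columns by the number of miR-29 seed matches in the 3′ UTR (0 to 4, at the top) and in alphabetical order within a column. Of the 5 chains with 2 or more matches, only COL5A1 and COL7A1 passed the filter on low counts in both groups. These are higher, at 2.27 and 0.94. COL3A1, COL4A4 and COL5A3, among the 5, passed that filter only through the siLINC00152 libraries, so a difference in them was built in. The untested chains COL11A1, COL19A1, COL21A1 and COL4A3 hold 2 matches each and are not shown. The 6 chains without a match include COL6A1 as the 1 higher chain.

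The genes that modify, fold and cross-link collagen were followed as a list of 61. Of these 49 were tested, 25 were higher, 16 lower and 8 did not pass, against 32.2% higher and 32.2% lower among all tested genes, so the share of lower genes is near the background. Their median log2 fold change was 0.20, and the counts of each group below are to be read against the same shares. The 4 genes of each group with the smallest p-values are given below, and each passed (highest edgeR adjusted p = 4.63e-04). The enzymes of hydroxylation and glycosylation, which prepare the chains in the endoplasmic reticulum, were higher in 10 of 14 cases. P4HA2, a prolyl 4-hydroxylase subunit, averaged 583 ± 22.1 CPM in the siLINC00152 libraries and 300.2 ± 5.18 CPM in the siGL2 libraries (SD, n = 3 each), a log2 fold change of 0.96. PLOD2, the lysyl hydroxylase of the telopeptides, had a log2 fold change of 0.76, and the prolyl 3-hydroxylases P3H2 and P3H1 had 0.83 and 0.72. P3H3 was the 1 lower gene, at -0.19.

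Of 10 tested genes of folding and export 7 were higher and 2 lower. SPARC, a collagen-binding matrix protein, averaged 1744 ± 29.3 CPM in the siLINC00152 libraries and 591 ± 1.70 CPM in the siGL2 libraries, a log2 fold change of 1.56. SERPINH1, the chaperone HSP47 of the triple helix, averaged 190.3 ± 13.5 CPM in the siLINC00152 libraries and 86.0 ± 2.63 CPM in the siGL2 libraries, a log2 fold change of 1.15. FKBP14, a prolyl isomerase, and MIA3, which loads procollagen into carriers, had log2 fold changes of 0.84 and 0.59.

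The genes of propeptide cleavage moved both ways, with 2 of 6 higher and 4 lower. BMP1, the C-propeptidase, had a log2 fold change of 1.505, at 123 ± 8.22 CPM in the siLINC00152 libraries and 43.3 ± 1.80 CPM in the siGL2 libraries. Its enhancers PCOLCE and PCOLCE2 were lower, at -0.83 and -0.68, and 16.6% of the exonic bases of PCOLCE overlap an antisense gene. Of the N-propeptidases, ADAMTS2 and ADAMTS3 were lower, at -1.14 and -0.49 (edgeR adjusted p = 1.19e-06 and 5.85e-04), and ADAMTS14 was higher. ADAMTS14 had a log2 fold change of 1.91, at 1.55 ± 0.246 CPM in the siLINC00152 libraries and 0.414 ± 0.108 CPM in the siGL2 libraries.

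Of 6 tested crosslinking genes 4 were higher and 1 lower. LOXL4, a lysyl oxidase relative, averaged 13.6 ± 1.23 CPM in the siLINC00152 libraries and 0.619 ± 0.0164 CPM in the siGL2 libraries, a log2 fold change of 4.45. LOX itself had a log2 fold change of 1.09 and LOXL2 one of 0.89. TGM2, a transglutaminase, was the lower gene, at -1.77, with 75.3 ± 2.58 CPM in the siLINC00152 libraries and 256 ± 6.60 CPM in the siGL2 libraries.

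Of 8 tested collagen receptors 1 was higher and 4 were lower, against 32.2% of all tested genes in each direction: ITGA1 had a log2 fold change of 0.77, while ITGA10 had -1.503, ITGA2 -0.89 and ADGRG1 -0.31. The integrin ITGA2, a receptor for type I collagen, averaged 236 ± 17.3 CPM in the siLINC00152 libraries and 437 ± 31.7 CPM in the siGL2 libraries. Of 5 tested genes of collagen degradation 1 was higher and 4 were lower, against the same 32.2%, with the membrane protease MMP14 at -0.47, the cysteine protease CTSK at -0.28, the serine protease FAP at -0.26 and the gelatinase MMP2 at 0.20. The 24 genes chosen by smallest p-value kept their direction and their call in each alternative that tested them, which for ADAMTS14 leaves out the filter at a mean of 1 CPM. Choosing them by p-value in these same libraries favours that outcome. The other tested pathway genes, with larger p-values within their groups, were not followed this way.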

How the data were processed

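For each library the authors deposited raw read counts by gene symbol. Listed tools are bcl2fastq, HISAT, HTSeq and DESeq, with build hg38 and no versions, per the submitters' processing notes. For the annotation and strand setting of the counting, the sources used here say nothing. From the deposited counts, filterByExpr (minimum count 10, minimum total 15) kept 14078 of 27192 genes. They were compared with edgeR 4.0.16 (robust quasi-likelihood test, TMM, two-sided, no covariate) in R 4.3.3, with p-values adjusted by Benjamini-Hochberg over all of them. CPM is TMM-scaled. DESeq2 1.42.0 and the other settings in the closing section were alternatives. Genes were matched to GENCODE 29 (24764 of 27192 symbols, all 44 collagens), whose transcript with the longest coding sequence gave lengths and 3′ UTRs. Chains with a mean of at least 1 CPM are given by library, and up to 4 pathway genes a group by smallest p-value. Members and lists were chosen with earlier results of these data known. COL14A1, COL3A1, COL4A3, COL4A4, COL5A3, COL28A1, COL9A2, COL9A3, COL11A1, COL19A1 and COL21A1, DCN, LUM, THY1, VWF, ADAMTS2, ADAMTS3 and P3H3 were named outside these rules, after their values were seen. Triple helix lengths were not analysed here. The edgeR step was tested on simulated data.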

Additional observations from a re-analysis of the deposited data

How the results depend on the processing

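Of the 24 tested chains, 17 kept direction and call in each of 13 alternatives that tested them (library size alone, RLE, DESeq2, 2 other filters on low counts, a replicate block, a correction for transcript length, and leaving out each library). The count of higher chains was 13 in the main comparison and 10 to 15 in the alternatives. The count of lower chains, 5, was 3 with DESeq2, 3 with a mean of at least 1 CPM as the filter, 8 with the length correction, and 3 to 6 when a library was left out, with 3 without siLINC00152 A or C. With a mean of at least 1 CPM as the filter, the calls of at least 1.5-fold were 7 in place of 12 and those of at least 2-fold 2 in place of 6. There fewer chains, 19, were tested. The log2 ratios of class sums without the most abundant chain were 0.90 over all chains (main 0.46), 0.80 for fibrillar (1.31), 0.17 for basement membrane (0.75), 0.51 for beaded filament (0.10) and -0.23 for transmembrane chains (-0.15). With library size alone the basement membrane and transmembrane ratios were 0.69 and -0.21. Chains that did not pass changed sign as follows: COL16A1, 0.03, was -0.0327 with library size alone, -0.0579 with the length correction, and -0.0206 (without siLINC00152 A) to 0.0901 when a library was left out. COL27A1 was -0.00914 with the length correction, and COL6A3 was -0.106 to 0.0497 (without siGL2 A) when a library was left out. For these the cause was not tested. Whether the letters A, B and C pair the libraries is unsettled, since the labels do not say and the deviations of same-lettered libraries correlated at 0.118, -0.0360 and 0.117, and 2 of 3 letters correlated best with their own. They were not treated as pairs. With the replicate block 13 chains were higher and 6 lower, COL12A1 among them at -0.13 (edgeR adjusted p = 0.0421). The 20 untested chains had counts between 0 and 18, too few for a call under the main filter.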
